A study of Mus musculus with 24 samples.

Results

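The genes described here are 35 mouse genes of blood coagulation, fibrinolysis and the kinin system, chosen by name from the 54432 genes of a liver RNA-seq table. The list was drawn up by name, with no threshold on a value, when earlier results of these data were known. Each of the 35 symbols occurred on 1 row of the table, and all 35 had a mean of at least 1 normalized count and were tested. A normalized count is a read count estimated for a gene and divided by a factor for the depth of its library, and it is the unit of every level below.

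The livers came from male C57BL/6 mice, aged 20 to 21 weeks at injection, that received AAV-Cre, an adeno-associated virus that carries the Cre recombinase. They were collected 4 weeks later, after a 4-hour fast. There were 4 groups of 6 mice. WT was wild type, Trib1-KO was Trib1 Flox/Flox, Cebpa-KO was Cebpa Flox/Flox, and DKO was Trib1;Cebpa Flox/Flox. The WT mice had received AAV-Cre too, so that all groups share the virus and no group lacks it. The labels do not name the promoter that drives Cre. They place 3 mice of each group in each of 2 cohorts, which cannot be tied to the columns of the table, so cohort was in no model. Whole liver was sequenced, and in a bulk sample fewer cells of a type and less RNA per cell cannot be told apart.

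The liver makes most of the plasma proteins of clotting. Zymogens such as prothrombin and factors VII, IX and X carry a domain that must be carboxylated in a vitamin K-dependent step before they can bind calcium and membranes. Tissue factor with factor VII starts the cascade, the contact factors start a second route that also frees bradykinin from kininogen, and thrombin turns fibrinogen into fibrin. Factor XIII crosslinks the fibrin, plasmin removes it, and serpins such as antithrombin hold the proteases in check. Trib1 is a pseudokinase that brings the transcription factor C/EBP alpha, the product of Cebpa, to a ubiquitin ligase, and C/EBP alpha is one of the factors that maintain liver-specific transcription.

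Library totals ran from 23385895 to 27190701 normalized counts, with 19831 to 21189 genes above 0. Cebpa fell to a lowest, median and highest of 50.5, 84.9 and 100.9 in Cebpa-KO and of 58.1, 87.8 and 102 in DKO, from 4264, 6144 and 7412 in WT. Trib1 went against its label. The libraries labelled Trib1-KO held 3734, 4164 and 4784, above the WT values of 874, 1249 and 1475, and those labelled DKO held 286, 769 and 1077. In Cebpa-KO Trib1 was 215, 287 and 646. The table gives 1 value per gene, so it does not show whether the floxed stretch was lost, and every direction drawn from these 12 libraries below is that of libraries labelled Trib1-KO or DKO. Cebpa itself was also lower in the libraries labelled Trib1-KO, at 2295, 2627 and 3163. Libraries that stood apart were WT B3, Cebpa-KO F3, DKO H2 and DKO H3, each named by its column. In F3 the summed level of Saa1 and Saa2, which encode the acute-phase protein serum amyloid A, was 23050 against a second highest of 1569 in Cebpa-KO. In H2 and H3 it was 161100 and 114400, against at most 20850 in the other DKO libraries. The same sum was also higher than in WT at the median of the groups labelled Trib1-KO and DKO. It was 6449 to 21070 in the libraries labelled Trib1-KO (median 9283) and 730.8 to 8499 in WT (median 1740). These ranges overlapped only through WT A3, the next WT library being at 3432. The median was 12040 in the libraries labelled DKO (lowest 486.6) and 507.2 in Cebpa-KO. The part of these acute-phase differences in the results below was not tested.

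In the libraries labelled Trib1-KO, most of the calls against WT among the 35 transcripts were falls. In those libraries 19 of the 35 were lower than in WT and 7 were higher, by limma with Benjamini-Hochberg adjustment over the 19810 genes tested at a threshold of 0.05. Of all genes tested, 10.9% were called lower and 11.8% higher in that comparison. The median log2 difference was -0.40 over the 35 genes and 0.01 over all genes tested. In Cebpa-KO 4 of the 35 were lower and 6 higher than in WT, with 5.22% of all genes called lower and 4.6% higher. In the libraries labelled DKO 1 was lower and 4 were higher than in WT, with 3.25% and 2.84% of all genes. The 35 genes together held a median of 2.71% of all normalized counts in WT (2.09 to 3.19%), 1.48% in the libraries labelled Trib1-KO (1.44 to 1.66%), 2.26% in Cebpa-KO (2.09 to 3.65%) and 2.45% in those labelled DKO (2.15 to 3.44%). These totals include the major urinary protein genes, which held 21.0 to 26.7% in the libraries labelled Trib1-KO and 2.93 to 8.73% in WT.

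**Figure D1:**
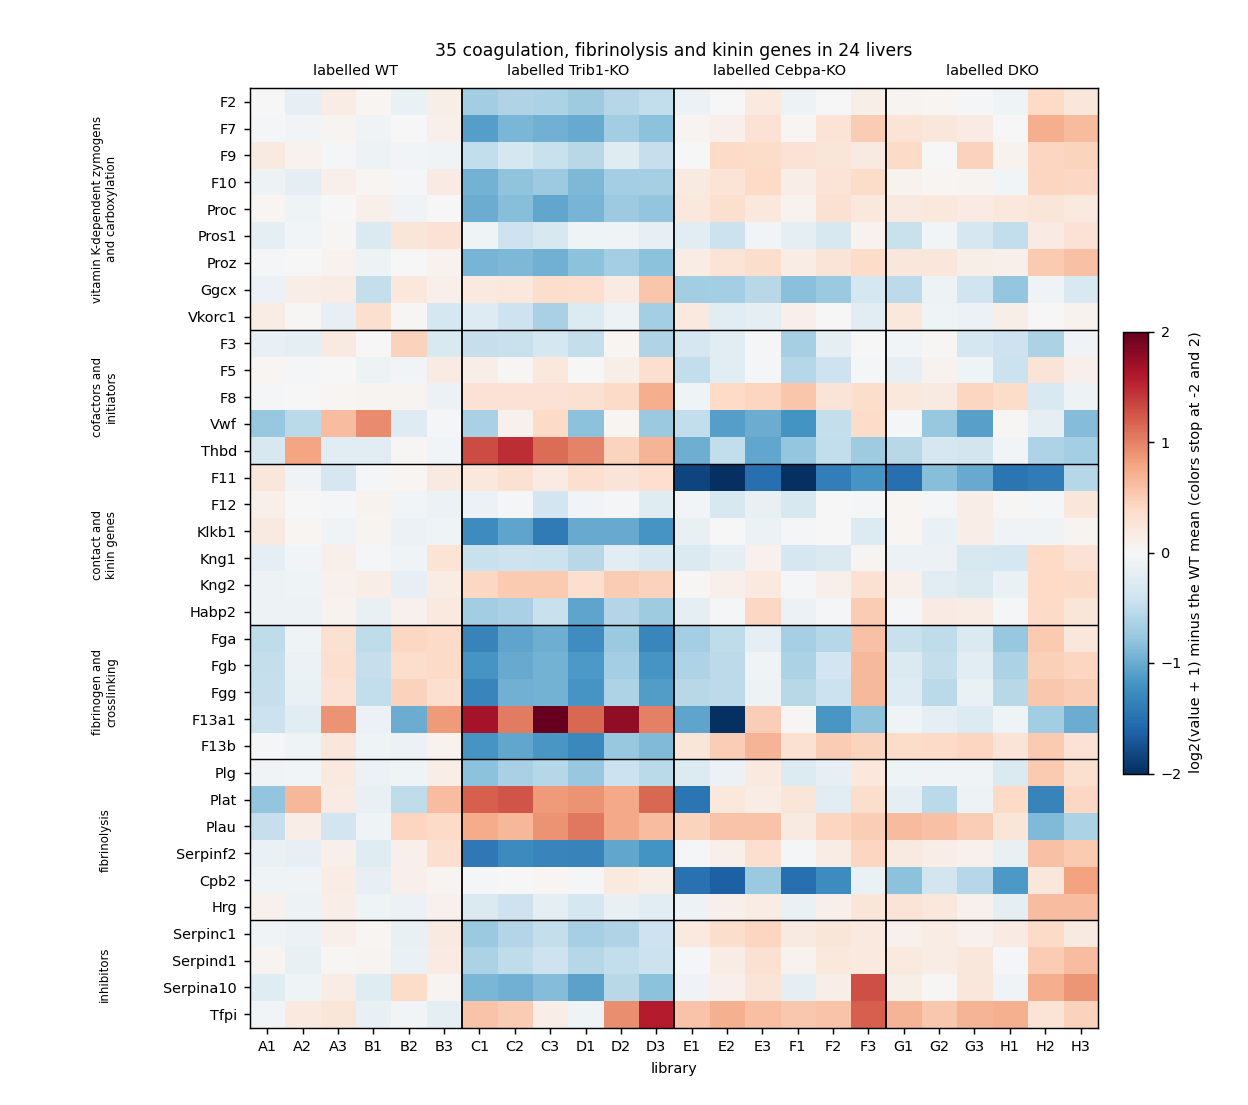
Each cell is the log2(value + 1) of 1 gene (rows, by role) in 1 library (columns, by labelled group) minus the mean of the 6 WT libraries of that gene. Most rows are blue in the 6 libraries labelled Trib1-KO, where 19 of 35 genes were lower than in WT, and the F11 row is blue in Cebpa-KO and in the libraries labelled DKO. F13a1 is close to 0 counts, so its row is noisy.

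**Figure D2:**
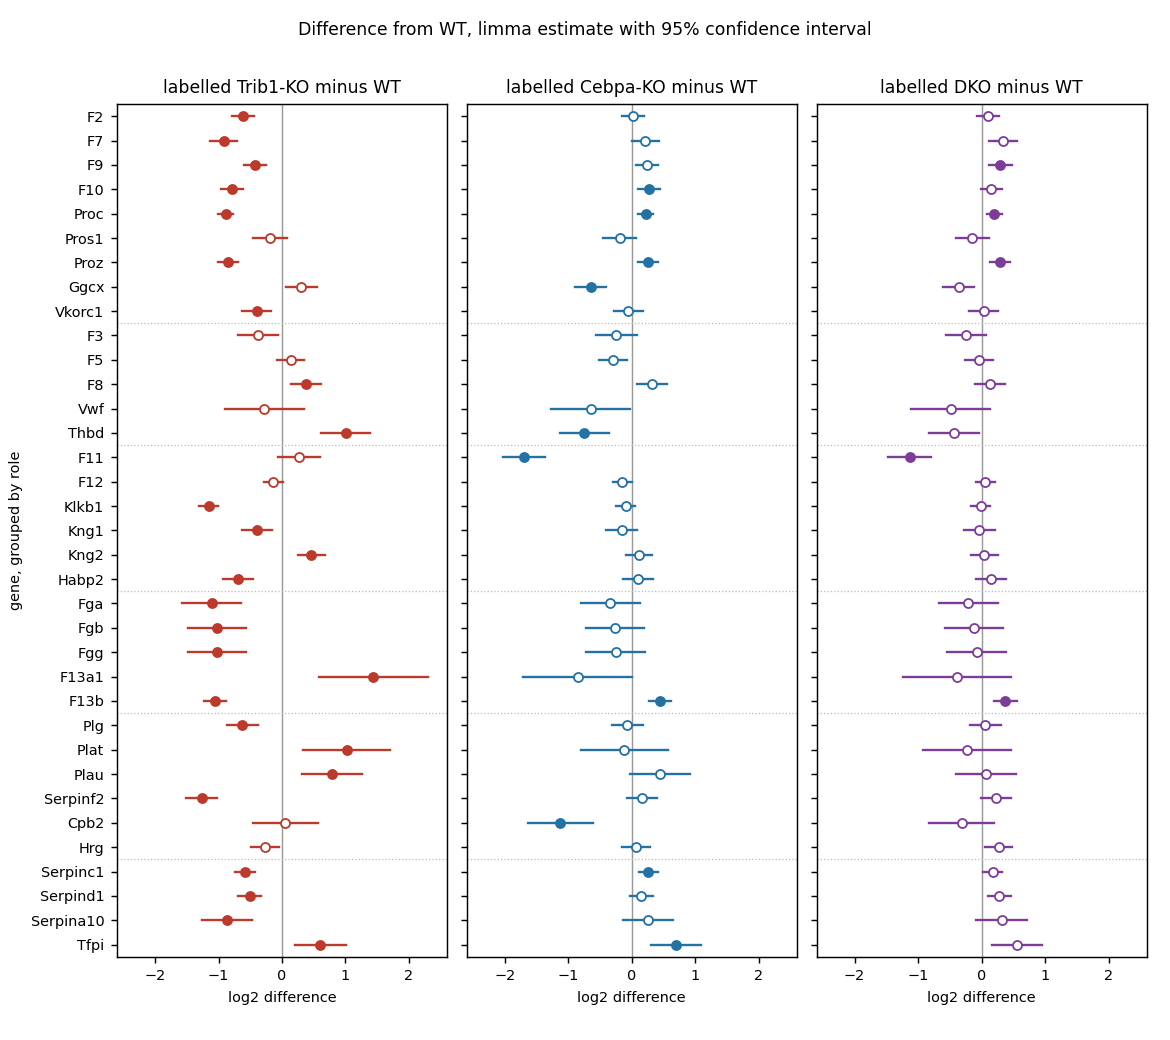
Points are limma estimates of the log2 difference from WT for each of the 35 genes in 3 comparisons, with 6 libraries per group, and bars are 95% confidence intervals. Filled points passed the adjusted threshold of 0.05. On the left 19 filled points lie below 0 and 7 above, and on the right 1 lies below and 4 above.

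Of the 9 genes of the vitamin K-dependent zymogens and their carboxylation, 7 were lower in the libraries labelled Trib1-KO and none was higher. F7, which encodes the factor that tissue factor binds to start clotting, was 1636, 1696 and 1845 normalized counts in WT (lowest, median and highest of 6, as in all triplets below). It was 802, 896 and 1058 in the group labelled Trib1-KO, 1763, 1965 and 2434 in Cebpa-KO and 1728, 2037 and 2852 in those labelled DKO. The libraries labelled Trib1-KO all lay below WT, and the log2 difference was -0.92 ± 0.10 (SE, adjusted p = 2.78e-07). Proc encodes protein C, the zymogen of an anticoagulant protease. Its values were 9078, 9657 and 10373 in WT, 4683, 5194 and 5830 in the group labelled Trib1-KO, 10125, 11128 and 12067 in Cebpa-KO, and 10754, 11109 and 11416 in those labelled DKO. Here the order was the reverse in the other groups: Proc was lower by 0.89 on the log2 scale in the group labelled Trib1-KO (adjusted p = 1.92e-11) but higher by 0.22 in Cebpa-KO (adjusted p = 0.0132) and by 0.20 in those labelled DKO (adjusted p = 0.0336). Proz, which encodes protein Z, a cofactor in the inhibition of factor Xa, was 7131, 7678 and 8111 in WT, 3967, 4235 and 4789 in the group labelled Trib1-KO, 8491, 9261 and 9884 in Cebpa-KO, and 8222, 8979 and 11530 in those labelled DKO. None of these 3 groups overlapped WT, the first lying below it and the other two above. The log2 differences were -0.85 ± 0.08, 0.26 ± 0.08 and 0.30 ± 0.08.

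F10 encodes the protease that forms thrombin. It was 7443, 8438 and 9402 in WT, 4374, 4943 and 5286 in the group labelled Trib1-KO, 9185, 10103 and 11081 in Cebpa-KO and 8087, 8749 and 11257 in those labelled DKO. It was lower by 0.79 in the first comparison (adjusted p = 1.05e-07) and higher by 0.27 in Cebpa-KO (adjusted p = 0.0396). F2, the gene of prothrombin, was 30903, 35246 and 38555 in WT and 21286, 22793 and 24724 in the libraries labelled Trib1-KO, which did not overlap (log2 difference -0.61 ± 0.08). In Cebpa-KO F2 held 32060, 35084 and 39940, and in the libraries labelled DKO 32705, 35950 and 45919, both overlapping WT. F9, which encodes the factor missing in hemophilia B, was 3969, 4128 and 4826 in WT, 2880, 3097 and 3581 in the group labelled Trib1-KO, 4227, 5104 and 5566 in Cebpa-KO, and 4253, 5632 and 5862 in those labelled DKO. The fall of 0.43 in the first comparison was called (adjusted p = 0.000515), as was the rise of 0.30 in the libraries labelled DKO (adjusted p = 0.0366).

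Of the 2 enzymes of the vitamin K cycle, Vkorc1 was lower in the libraries labelled Trib1-KO, as 6 of the other genes of the group were, and Ggcx was not. Ggcx encodes the carboxylase itself. It was lower by 0.65 ± 0.12 in Cebpa-KO than in WT (adjusted p = 0.000604), with group means of 807 ± 98.5 (SD, n = 6) and 1272 ± 204. In the libraries labelled Trib1-KO its mean was 1555 ± 162, and the log2 difference of 0.30 did not pass (adjusted p = 0.0722). In those labelled DKO it was lower by 0.36 (adjusted p = 0.0749), and without F3, H2 and H3 together by 0.45, which passed (adjusted p = 0.0369). Vkorc1, which encodes the warfarin-sensitive reductase that renews vitamin K, was 1572, 2054 and 2516 in WT, 1253, 1591 and 1887 in the group labelled Trib1-KO, 1730, 1907 and 2298 in Cebpa-KO, and 1865, 2060 and 2330 in those labelled DKO. All of its groups overlapped WT, and the first difference was called (-0.40 ± 0.11, adjusted p = 0.00984). Pros1, the gene of protein S, the cofactor of activated protein C, passed in none of the comparisons, with means of 1809 ± 285 in WT and 1574 ± 151 in the libraries labelled Trib1-KO.

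F7, F10 and Proz lie next to each other on chromosome 8 of GRCm38, on the plus strand, with gaps of 1.5 and 4.24 kb between the gene bodies. The median ratio of F10 to F7 was 4.93 in WT (4.47 to 5.26), 5.35 in the group labelled Trib1-KO (4.94 to 5.74), 5.24 in Cebpa-KO (4.46 to 5.45) and 4.26 in those labelled DKO (3.95 to 4.68), so that the ranges of the libraries labelled Trib1-KO and DKO did not overlap. The ratio of Proz to F10 ran from 0.828 to 1.02 in WT, from 0.781 to 0.973 in the group labelled Trib1-KO, from 0.889 to 0.929 in Cebpa-KO and from 0.960 to 1.04 in those labelled DKO, the last 2 without overlap. Without replicate F3 of Cebpa-KO the rises of F10 and Proz in that group no longer passed (log2 difference 0.25, adjusted p = 0.0803, and 0.24, adjusted p = 0.0678). Neither passed with no filter on low values (adjusted p = 0.0649 and 0.0522) or no intensity trend (adjusted p = 0.0691 and 0.0586). Without F3, H2 and H3 together none of F9, Proc and Proz was called higher in the libraries labelled DKO than in WT (adjusted p = 0.194, 0.102 and 0.143). Each of the 3 calls was also lost without H3 alone (adjusted p = 0.0833, 0.0502 and 0.0501), and those of F9 and Proc without B3 of WT (adjusted p = 0.0734 and 0.0505). Alternatives that left out no library of these groups lost calls too. F9 and Proc did not pass with no filter on low values (adjusted p = 0.0585 and 0.0631) or no intensity trend (adjusted p = 0.0683 and 0.0735). F9 and Proz did not pass with only the groups compared fitted (adjusted p = 0.102 and 0.0886). F7, higher by 0.34 in the libraries labelled DKO than in WT, passed without F3 (adjusted p = 0.0419).

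Among the cofactors and initiators, 2 of 5 genes were higher in the libraries labelled Trib1-KO and none was lower. Thbd encodes thrombomodulin, the endothelial receptor that turns thrombin toward protein C. It was 75.6, 86.6 and 165 in WT, 130, 198 and 266 in the group labelled Trib1-KO, 45.8, 56.5 and 67.4 in Cebpa-KO and 59.2, 68.7 and 90.9 in those labelled DKO. It moved in opposite directions in the groups with 1 floxed gene, higher by 1.00 ± 0.19 where Trib1-KO was the label (adjusted p = 0.000264) and lower by 0.75 ± 0.19 in Cebpa-KO (adjusted p = 0.0107). The Cebpa-KO libraries all lay below WT, while those labelled Trib1-KO overlapped it through WT A2, the highest of the WT libraries. F8, the gene of factor VIII, the cofactor missing in hemophilia A, was 470, 516 and 531 in WT, 620, 624.9 and 840 in the group labelled Trib1-KO, 482, 661 and 746 in Cebpa-KO and 410, 586 and 686 in those labelled DKO. All those labelled Trib1-KO lay above WT, with a log2 difference of 0.38 ± 0.12 (adjusted p = 0.0177). F5, the gene of factor V, F3, the gene of tissue factor, and Vwf, the gene of von Willebrand factor, passed in no comparison with WT. Their log2 differences in the 3 comparisons ran from -0.29 to 0.14 for F5, from -0.38 to -0.24 for F3 and from -0.65 to -0.28 for Vwf. The WT libraries ran from 15249 to 18392 normalized counts for F5, from 87.5 to 150.1 for F3 and from 149 to 485 for Vwf. Without replicate F3 of Cebpa-KO, F5 was called lower in that group, by 0.35 (adjusted p = 0.0374). Without replicate B3 of WT, the gene F3 was called lower in the libraries labelled Trib1-KO, by 0.44 (adjusted p = 0.0481). Under quantile normalization of all libraries the gene F3 was also called lower there (-0.54, adjusted p = 0.0108). F5 was called higher there under the same normalization (0.36, adjusted p = 0.00948). Factor VIII, thrombomodulin and von Willebrand factor are made by endothelium. The summed level of the 12 sinusoidal endothelial markers was 14090 to 16210 in WT and 14620 to 15950 in the libraries labelled Trib1-KO. Its mean log2 score differed by 0.07 (exact 2-sided permutation test, p = 0.0433, adjusted p = 0.114 over 21 tests). That score averages markers that went both ways: of the 12, Lyve1 (0.80), Pecam1 (0.34) and Cdh5 (0.28) were called higher and Stab1 (-0.44), Dnase1l3 (-0.31) and Kdr (-0.30) lower, and 6 did not pass. The defining markers Stab2 and Clec4g were above 0 in all 24 libraries, with medians of 1747 and 1223 in WT and 2083 and 1179 in the libraries labelled Trib1-KO. The part of these cells in the Thbd and F8 differences was not tested.

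The contact and kinin genes held the largest difference of the set in Cebpa-KO. F11 encodes factor XI, which carries contact activation to factor IX. It was 1766, 2225 and 2617 in WT, 2490, 2707 and 2812 in the group labelled Trib1-KO, 486, 704 and 979 in Cebpa-KO and 783, 974 and 1500 in those labelled DKO. All 12 libraries of the groups with floxed Cebpa lay below all 12 of the others. F11 was lower than in WT by 1.70 ± 0.16 in Cebpa-KO (0.308 of WT, adjusted p = 8.85e-08) and by 1.13 ± 0.16 in the libraries labelled DKO (0.456 of WT, adjusted p = 4.95e-05). The 0.27 by which it exceeded WT in the libraries labelled Trib1-KO did not pass (adjusted p = 0.268). Klkb1 encodes plasma prekallikrein, the close relative of factor XI that frees bradykinin. It showed the other pattern, with 5715, 6129 and 6979 in WT, 2333, 2849 and 3095 in the group labelled Trib1-KO, 5151, 5867 and 6247 in Cebpa-KO and 5633, 6129 and 6766 in those labelled DKO. Only those labelled Trib1-KO lay below WT (log2 difference -1.15 ± 0.07, adjusted p = 1.3e-11), and the interval of the difference in Cebpa-KO ran from -0.24 to 0.06.

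F11 and Klkb1 are neighbors on chromosome 8 of GRCm38, both on the minus strand, F11 from 45241174 to 45262031 and Klkb1 from 45266689 to 45294859, with 4.66 kb between them. Their ratio, F11 to Klkb1, had a median of 0.355 in WT, 0.958 in the group labelled Trib1-KO, 0.124 in Cebpa-KO and 0.153 in those labelled DKO. The ranges of the first 2 groups were 0.299 to 0.430 and 0.860 to 1.07, and those of the last 2 were 0.0777 to 0.190 and 0.124 to 0.234. Their promoters are shown because the genes are adjacent and differed from WT in different groups. Each runs from 250 bases before to 30 bases after the RefSeq start, GRCm38.p6, 5′ to 3′, and capitals mark a match to the C/EBP motif TTGCNNAA on either strand.

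F11, chr8:45262002-45262281, minus strand: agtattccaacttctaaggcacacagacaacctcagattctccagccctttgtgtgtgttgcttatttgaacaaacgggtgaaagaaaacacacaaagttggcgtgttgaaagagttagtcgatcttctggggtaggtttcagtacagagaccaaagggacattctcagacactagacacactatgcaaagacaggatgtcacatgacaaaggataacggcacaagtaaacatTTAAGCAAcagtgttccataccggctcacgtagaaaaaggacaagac

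Klkb1, chr8:45294806-45295085, minus strand: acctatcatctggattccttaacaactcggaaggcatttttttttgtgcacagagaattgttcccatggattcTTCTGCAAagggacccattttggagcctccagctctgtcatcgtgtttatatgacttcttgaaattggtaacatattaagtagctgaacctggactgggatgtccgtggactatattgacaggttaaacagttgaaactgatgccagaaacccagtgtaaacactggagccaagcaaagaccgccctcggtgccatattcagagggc

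Counted from the start base as 0, the match in F11 begins at -17 (TTAAGCAA) and that in Klkb1 at -177 (TTCTGCAA). Over windows from 250 bases before to 50 after the start, the motif was in 3547 of 32851 promoters of the RefSeq table (10.8%) and in 11 of the 27 genes of the set that had an entry. Those were Cpb2, F11, F9, Fga, Fgb, Ggcx, Habp2, Hrg, Klkb1, Kng2 and Serpinc1. Cpb2, F11 and Ggcx were called lower in Cebpa-KO, and F9, Fga, Fgb, Habp2 and Klkb1 lower in the libraries labelled Trib1-KO. Serpinc1 was lower in the libraries labelled Trib1-KO and higher in Cebpa-KO. Kng2 was higher in the libraries labelled Trib1-KO, and Hrg was called in neither comparison. The HNF1 motif GTTAATNAT was in 0.801% of all promoters and in those of F13b, Fga and Habp2, and the HNF4 motif CAAAGTCCA was in 0.475% of all promoters and in 0 of the 27. A match is a run of letters and was not tested as a binding site. Plat, Thbd, Plau, Vwf, Kng1, Serpina10, Proc and Plg were not among the 27.

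The other contact and kinin genes differed less. Habp2, the gene of a protease that can activate factor VII, was 3314, 3619 and 4206 in WT, 1756, 2305 and 2681 in the group labelled Trib1-KO, 3194, 3593 and 5212 in Cebpa-KO and 3583, 4065 and 4758 in those labelled DKO. Its libraries labelled Trib1-KO lay below WT (-0.69 ± 0.12, adjusted p = 6.18e-05). F12, the gene of the contact factor that starts the route, was 8413, 9046 and 9800 in WT, 7004, 8598 and 8973 in the group labelled Trib1-KO, 7272, 8472 and 9007 in Cebpa-KO and 8924, 9240 and 10598 in those labelled DKO, and it passed in no comparison with WT. Mice have a pair of kininogen genes, the precursors of bradykinin. Kng1 was 39548, 43442 and 54139 in WT, 30707, 33617 and 38646 in the group labelled Trib1-KO, 35449, 38286 and 47759 in Cebpa-KO and 35657, 41486 and 59266 in those labelled DKO. Kng2 was 4846, 5411 and 6022, then 6855, 7628 and 7836, then 5337, 5850 and 6726, and then 4449, 5410 and 7138 in the same order of groups. Under the Trib1-KO label Kng1 was lower by 0.40 (adjusted p = 0.0146) and Kng2 higher by 0.46 (adjusted p = 0.00118), and the median ratio of Kng1 to Kng2 was 4.51 against 8.43 in WT. These genes are near copies, so the split of reads between them is uncertain. Their sum had medians of 48958 in WT and 41426 in the libraries labelled Trib1-KO.

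All 3 fibrinogen chains and the B subunit of factor XIII were lower in the libraries labelled Trib1-KO. Per kb of exon, Fga, Fgg and Fgb were the most abundant genes of the set in WT, with means of 44340, 43060 and 27770 normalized counts per kb, followed by Plg at 15520 and Kng1 at 13900. As counts per gene, Fga was 90863, 140050 and 171530 in WT, 51027, 58279 and 77368 in the group labelled Trib1-KO, 80595, 88516 and 192620 in Cebpa-KO and 76492, 100200 and 185730 in those labelled DKO. The libraries labelled Trib1-KO all lay below WT, while the highest values of the last 2 groups came from F3 and H2. Fgb ran from 73540 to 132920 in WT (median 111510), from 45280 to 64064 in the libraries labelled Trib1-KO (48598), from 66318 to 160010 in Cebpa-KO (75029) and from 65950 to 143040 in those labelled DKO (85443). Fgg ran from 61798 to 120200 (93078), from 34849 to 56906 (42406), from 59231 to 136750 (62494) and from 59061 to 126470 (76247) in the same order. The log2 differences from WT in the libraries labelled Trib1-KO were -1.11 ± 0.23 for Fga, -1.02 ± 0.22 for Fgb and -1.02 ± 0.23 for Fgg, with adjusted p of 0.000653, 0.00107 and 0.00132. No chain passed in Cebpa-KO or in the libraries labelled DKO. Without F3, H2 and H3 together Fga was called lower in Cebpa-KO, by 0.52 (adjusted p = 0.0476).

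The chains lie together on chromosome 3 of GRCm38, from Fgg through Fga to Fgb, with gaps of 11.0 and 6.51 kb. The median ratio of Fga to Fgb was 1.25 in WT, 1.20 in the group labelled Trib1-KO, 1.21 in Cebpa-KO and 1.19 in those labelled DKO, and that of Fgg to Fgb ran from 0.836 to 0.884. Together the chains held a median of 1.39% of all counts in WT and 0.584% in the libraries labelled Trib1-KO, with the major urinary protein genes again part of the totals.

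F13b, which encodes the carrier subunit of factor XIII, was 3907, 4092 and 4937 in WT, 1740, 1977 and 2492 in the group labelled Trib1-KO, 5017, 5855 and 6774 in Cebpa-KO and 5073, 5484 and 6078 in those labelled DKO. None of the groups overlapped WT. It was lower by 1.05 ± 0.09 in the first (adjusted p = 1.09e-09) and higher by 0.45 ± 0.09 in Cebpa-KO (adjusted p = 0.000925) and by 0.37 ± 0.09 in the libraries labelled DKO (adjusted p = 0.00784). These 3 calls held in every alternative tried. F13a1, the gene of the crosslinking subunit, went the other way at a very low level. It was 2.03, 4.41 and 10.3 in WT, 11.2, 15.3 and 23.6 in the group labelled Trib1-KO, 0, 2.18 and 7.53 in Cebpa-KO and 2.04, 4.15 and 4.73 in those labelled DKO, higher by 1.44 ± 0.42 on the log2(value + 1) scale in the first (adjusted p = 0.0125).

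**Figure D3:**
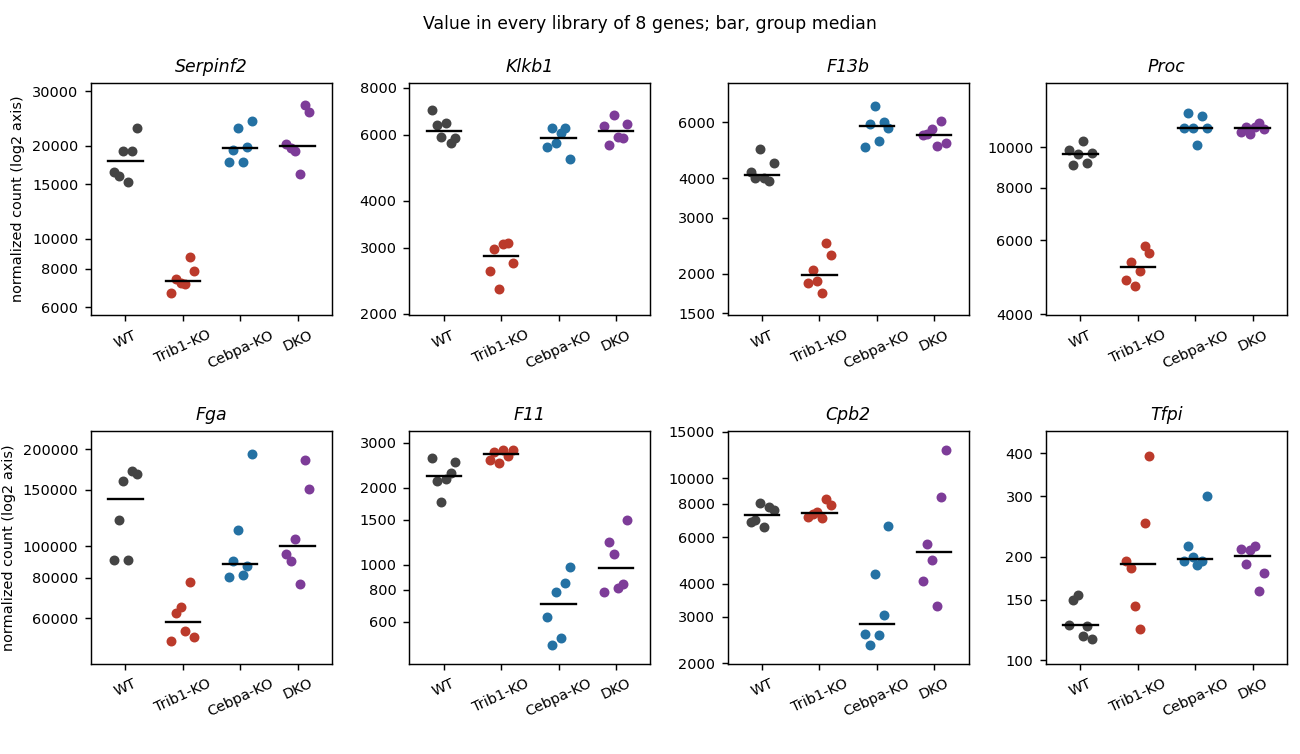
Normalized counts of 8 genes in each of the 24 libraries, 6 per labelled group, on log2 axes that do not start at 0, with the group median as a bar. Serpinf2, Klkb1, F13b and Proc are lowest in the 6 libraries labelled Trib1-KO. F11 is lowest in the groups with floxed Cebpa, and Cpb2 and Fga spread widely in these groups, with Cebpa-KO F3 and DKO H2 or H3 highest.

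In the fibrinolysis genes the plasmin inhibitor fell further than plasminogen. Serpinf2 encodes alpha 2-antiplasmin, the main inhibitor of plasmin. It was 15212, 17845 and 22757 in WT, 6652, 7297 and 8743 in the group labelled Trib1-KO, 17649, 19603 and 24080 in Cebpa-KO and 16180, 19987 and 27066 in those labelled DKO. The libraries labelled Trib1-KO lay below WT, and the difference of -1.27 ± 0.12 (0.416 of WT, adjusted p = 1.15e-08) was the largest fall of the 35 genes in that comparison. Plg, the gene of plasminogen, was 53129, 55029 and 65595 in WT, 32357, 37608 and 42714 in the group labelled Trib1-KO, 47562, 52089 and 66206 in Cebpa-KO and 47130, 54663 and 82417 in those labelled DKO, with a difference of -0.63 ± 0.12 in the first comparison (adjusted p = 0.000302). The ratio of Plg to Serpinf2 ran from 2.76 to 3.49 in WT and from 4.77 to 5.37 in the libraries labelled Trib1-KO, with no overlap. In Cebpa-KO and the libraries labelled DKO it ran from 2.59 to 2.90 and from 2.67 to 3.05.

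The plasminogen activators rose in the same libraries. Plau, the gene of urokinase, was 36.7, 52.1 and 68.8 in WT, 79.3, 86.8 and 107 in the group labelled Trib1-KO, 58.0, 70.9 and 76.2 in Cebpa-KO and 27.2, 66.5 and 79.4 in those labelled DKO. Plat, the gene of tissue plasminogen activator, was 7.39, 13.6 and 21.9 in WT, 23.5, 28.4 and 33.7 in the group labelled Trib1-KO, 4.27, 15.4 and 17.5 in Cebpa-KO and 4.71, 12.0 and 18.3 in those labelled DKO. Both genes lay above WT in all 6 of those libraries, by 0.79 ± 0.23 (adjusted p = 0.0127) and 1.02 ± 0.33 (adjusted p = 0.0282). The call for Plat was lost under quantile normalization (0.81, adjusted p = 0.0763) and with no filter on low values (adjusted p = 0.0561). Hrg, the gene of a plasma protein that binds plasminogen and heparin, was 18766, 20409 and 22456 in WT, 15312, 17193 and 18354 in the group labelled Trib1-KO, 18631, 21901 and 24172 in Cebpa-KO and 18039, 23978 and 31389 in those labelled DKO. The first group lay below WT without passing the threshold (-0.27 ± 0.11, adjusted p = 0.0713). It passed in 5 alternatives, with adjusted p from 0.0146 to 0.0499.

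Cpb2, which encodes the carboxypeptidase that slows fibrinolysis, was lower in Cebpa-KO. It was 6531, 7274 and 8101 in WT, 7082, 7412 and 8366 in the group labelled Trib1-KO, 2350, 2809 and 6631 in Cebpa-KO and 3288, 5285 and 12754 in those labelled DKO. The highest Cebpa-KO library was F3 and the highest library labelled DKO was H3. Both H3 and H2, the latter at 8501, lay above all of WT. The difference from WT was -1.13 ± 0.25 in Cebpa-KO (adjusted p = 0.00329) and -0.31 ± 0.25 in the libraries labelled DKO (adjusted p = 0.573). Without F3, H2 and H3 together the second became -0.73 and passed (adjusted p = 0.00258). The promoters of Serpinf2 and Cpb2 are shown as those of the genes with the largest fall in the libraries labelled Trib1-KO and the second largest in Cebpa-KO, in the same window and notation.

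Serpinf2, chr11:75439472-75439751, minus strand: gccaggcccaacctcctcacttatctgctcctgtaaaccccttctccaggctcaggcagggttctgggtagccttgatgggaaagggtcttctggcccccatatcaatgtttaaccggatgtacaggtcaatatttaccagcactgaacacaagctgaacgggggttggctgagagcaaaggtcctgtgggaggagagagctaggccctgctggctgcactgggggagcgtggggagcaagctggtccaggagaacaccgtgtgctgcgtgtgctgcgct

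Cpb2, chr14:75242037-75242316, plus strand: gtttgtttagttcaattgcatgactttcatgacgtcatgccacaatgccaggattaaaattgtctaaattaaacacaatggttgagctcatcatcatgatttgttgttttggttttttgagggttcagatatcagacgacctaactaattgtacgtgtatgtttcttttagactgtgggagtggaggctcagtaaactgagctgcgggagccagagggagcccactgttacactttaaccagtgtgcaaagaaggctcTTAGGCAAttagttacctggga

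The Cpb2 match, TTAGGCAA, begins at 8 on the same count and so lies in the transcribed part, and none of the 3 motifs was found in the Serpinf2 window.

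Of the 4 inhibitor genes, 3 were lower in the libraries labelled Trib1-KO. Serpina10 encodes the inhibitor that works with protein Z. It was 3646, 4299 and 5571 in WT, 2053, 2331 and 2960 in the group labelled Trib1-KO, 3821, 4694 and 10563 in Cebpa-KO and 4110, 4888 and 7944 in those labelled DKO, and the libraries labelled Trib1-KO lay below WT (-0.86 ± 0.19, adjusted p = 0.00156). Serpinc1, the gene of antithrombin, was 41333, 45325 and 51854 in WT, 27258, 30201 and 34379 in the group labelled Trib1-KO, 51541, 53076 and 61154 in Cebpa-KO and 48309, 50874 and 59221 in those labelled DKO. It was lower by 0.58 ± 0.07 in the first (adjusted p = 1.8e-06) and higher by 0.26 ± 0.07 in Cebpa-KO (adjusted p = 0.0228). That rise did not pass with no filter on low values (adjusted p = 0.051) or with only the groups compared fitted (adjusted p = 0.0578). Serpind1, the gene of heparin cofactor II, was 10734, 12140 and 13326 in WT, 7672, 8409 and 8861 in the group labelled Trib1-KO, 11512, 13365 and 14630 in Cebpa-KO and 11597, 13785 and 18146 in those labelled DKO, with a fall of 0.51 in the first (adjusted p = 0.000108). Without replicate B3 of WT it was called higher in the libraries labelled DKO, by 0.31 (adjusted p = 0.0479). Tfpi, the gene of the inhibitor of tissue factor and factor Xa, was higher instead. It was 115, 126 and 155 in WT, 123, 190 and 392 in the group labelled Trib1-KO, 190, 197 and 300 in Cebpa-KO and 159, 200 and 215 in those labelled DKO. The last 2 groups lay above WT and the first overlapped it. The log2 differences were 0.61 ± 0.19 (adjusted p = 0.0232), 0.69 ± 0.19 (adjusted p = 0.0201) and 0.56 ± 0.19 (adjusted p = 0.0918). Without replicate F3 the rise in Cebpa-KO was 0.59 and did not pass (adjusted p = 0.0563). The rise of Tfpi in the libraries labelled Trib1-KO did not pass under quantile normalization (adjusted p = 0.066). With only the groups compared fitted it did not pass either (adjusted p = 0.0814), while that in the libraries labelled DKO passed (adjusted p = 0.0163).

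The promoters of F13a1 and Tfpi, from the most upstream of the 2 starts that RefSeq lists for each, are shown as those of the largest rises with an entry, F13a1 under the Trib1-KO label and Tfpi in Cebpa-KO. Neither window held a match to the 3 motifs, so both are in lower case throughout.

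F13a1, chr13:37050215-37050494, minus strand: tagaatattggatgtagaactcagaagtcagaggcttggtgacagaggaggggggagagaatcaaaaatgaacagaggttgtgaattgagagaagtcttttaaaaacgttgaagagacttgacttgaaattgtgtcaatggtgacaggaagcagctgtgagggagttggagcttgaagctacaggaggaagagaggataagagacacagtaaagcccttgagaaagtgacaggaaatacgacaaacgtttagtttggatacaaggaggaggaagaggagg

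Tfpi, chr2:84476730-84477009, minus strand: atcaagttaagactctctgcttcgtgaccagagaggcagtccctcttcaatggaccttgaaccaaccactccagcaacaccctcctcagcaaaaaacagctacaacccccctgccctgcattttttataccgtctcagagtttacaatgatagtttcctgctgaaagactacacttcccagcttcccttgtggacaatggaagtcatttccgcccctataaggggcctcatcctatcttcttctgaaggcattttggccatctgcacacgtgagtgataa

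Markers of other cells also differed from WT in the libraries labelled Trib1-KO. Scores are means of log2(value + 1) over a list, compared with WT by an exact 2-sided permutation test over 924 arrangements. The score of the 12 Kupffer cell and macrophage markers was higher by 0.71 (summed level 9915 to 17990 in WT and 18900 to 22140 in the group labelled Trib1-KO, adjusted p = 0.0341). That of the monocyte and neutrophil markers, 7 of 8 measured, was higher by 1.33 (140.8 to 319.5 against 270.3 to 609.7, adjusted p = 0.0227), with its defining marker S100a8 at a median of 8.98 and 27.4 and Ly6g at 0 in 4 of 6 libraries of each group. The score of the platelet list, 4 of 8 measured, differed by 0.48 (41.2 to 113 against 87.1 to 171, adjusted p = 0.161), and that of the 10 stellate cell markers by 0.26 (10440 to 14950 against 12210 to 14660, adjusted p = 0.161). The cholangiocyte score, from 7 markers, was lower by 0.75 (1451 to 2034 against 993 to 1241, adjusted p = 0.0303). The score of the 10 hepatocyte markers was lower by 0.73 (adjusted p = 0.0227), with Alb, the gene of albumin, at a median of 1370000 in WT and 361800 in the libraries labelled Trib1-KO. Macrophages and monocytes make factor XIII A and urokinase. The part of these cells in the rises of F13a1, Plau, Plat, Thbd and Tfpi, and of the hepatocyte markers in the falls, was not tested. In Cebpa-KO no list passed. In the libraries labelled DKO the monocyte and neutrophil score was higher by 0.81 (adjusted p = 0.0455) and the cholangiocyte score lower by 0.47 (adjusted p = 0.0364), although the summed level of the latter was higher, at 2702 to 5750.

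The design also pairs groups that differ by the floxed Trib1 allele, the libraries labelled Trib1-KO with WT and those labelled DKO with Cebpa-KO. Trib1 mRNA was higher in the first of each pair, by 1.81 ± 0.24 and 1.13 ± 0.24 on the log2 scale, so neither contrast can be read as a loss of Trib1 mRNA. Between the libraries labelled DKO and those of Cebpa-KO, 0 of the 35 genes were called in either direction by limma. Of all genes 0.0808% were called higher and 0.121% lower, so this comparison called very few genes of any kind. At an unadjusted p under 0.05, 5 of the 35 passed (Ggcx, F5, F11, F12 and Cpb2). The share of all genes at that unadjusted threshold was not counted, so whether 5 exceeds it is not known. The contrast of the libraries labelled DKO with Cebpa-KO and that of the libraries labelled Trib1-KO with WT share no library, and the difference between them, the interaction, was tested directly. It was called positive for 21 of the 35 genes and negative for 3, with 6.35% and 6.22% of all genes tested. By sign alone it was above 0 for 27 and below 0 for 8. Under quantile normalization 11 positive calls were left, and over the alternatives the negative calls ran from 1 to 6. A positive value means that the gene was higher in the libraries labelled DKO, relative to Cebpa-KO, than in those labelled Trib1-KO, relative to WT. The positive genes include Serpinf2 (1.33 ± 0.17, adjusted p = 3.48e-06), Klkb1 (1.23 ± 0.10, adjusted p = 6.34e-09), F7 (1.04 ± 0.15, adjusted p = 1.81e-05), F13b (0.98 ± 0.12, adjusted p = 2.92e-06), Proz (0.89 ± 0.11, adjusted p = 2.51e-06) and Proc (0.87 ± 0.08, adjusted p = 4.07e-08). For these 6 genes the difference between the libraries labelled DKO and Cebpa-KO ran from -0.07 to 0.13, with 95% confidence intervals that all included 0. The 3 negative genes were Plau (-1.17 ± 0.32), F8 (-0.57 ± 0.16) and Kng2 (-0.54 ± 0.14). Without F3, H2 and H3 together Plau was at -0.74 (adjusted p = 0.0556) and F8 at -0.39 (adjusted p = 0.0989), and neither passed. Thbd, F13a1, Plat and Tfpi were called higher in the libraries labelled Trib1-KO, but the difference between the contrasts did not pass for them (adjusted p = 0.0956, 0.326, 0.13 and 0.0775). With library totals that leave out the major urinary protein genes, described below, the median of all genes in the interaction moved to -0.24, and Thbd (-0.93, adjusted p = 0.0235), Plat (-1.36, adjusted p = 0.0488) and Tfpi (-0.98, adjusted p = 0.0152) passed. With the same totals F9, F12, Hrg, Kng1, Serpina10, Serpinc1 and Vkorc1 lost their positive calls (adjusted p from 0.0609 to 0.557).

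Of the 24 interaction calls, 13 were lost in at least 1 alternative. Under quantile normalization Serpinc1 went to 0.02 (adjusted p = 0.936), Kng1 to 0.16 (adjusted p = 0.503), F12 to 0.15 (adjusted p = 0.447), Hrg to 0.18 (adjusted p = 0.38), Plg to 0.32 (adjusted p = 0.144) and F2 to 0.25 (adjusted p = 0.0798). Fgb, Fgg, Vkorc1 and Serpina10 also lost the call there, with values from 0.44 to 0.82 and adjusted p from 0.0521 to 0.0822. Without F3, H2 and H3 together, F9 (0.40, adjusted p = 0.0513), Hrg (0.34, adjusted p = 0.0804), Kng1 (0.37, adjusted p = 0.0743) and Vkorc1 (0.45, adjusted p = 0.115) did not pass, besides Plau and F8. Hrg, Kng1 and Vkorc1 were also lost without H3 alone, Hrg and Kng1 without B3, and Vkorc1 without F3.

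**Figure D4:**
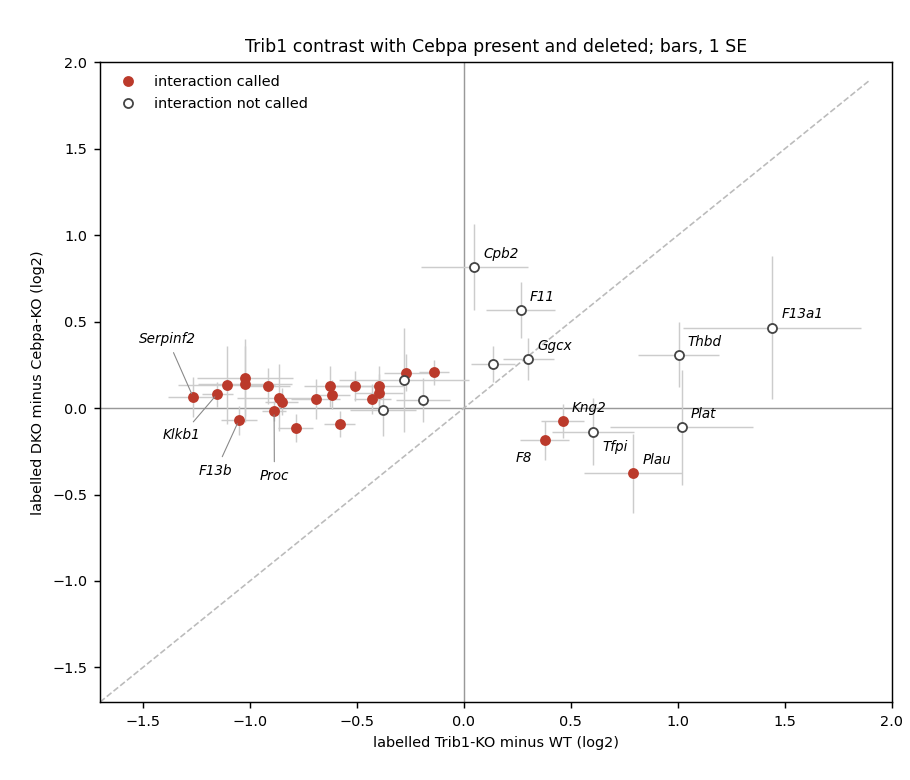
Each point is 1 of the 35 genes, by the log2 difference of the libraries labelled Trib1-KO from WT (x) and of those labelled DKO from Cebpa-KO (y), which share no library. Bars are 1 SE, the dashed line marks equal differences, and filled points passed the interaction test. The genes at the left lie near 0 on the y axis, such as Serpinf2 at -1.27 and 0.06.

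The 4 genes called lower in Cebpa-KO were F11, Cpb2, Thbd and Ggcx. F11 was higher by 0.57 ± 0.16 in the libraries labelled DKO than in Cebpa-KO (adjusted p = 0.178), Cpb2 by 0.82 ± 0.25 (adjusted p = 0.236), Thbd by 0.31 ± 0.19 (adjusted p = 0.658) and Ggcx by 0.28 ± 0.12 (adjusted p = 0.448), none of which passed. Their interaction values were 0.30 (adjusted p = 0.464), 0.77 (adjusted p = 0.172), -0.69 (adjusted p = 0.0956) and -0.02 (adjusted p = 0.969). Without F3 that of Cpb2 was 0.97 and passed (adjusted p = 0.0472). Directly compared, the libraries labelled DKO were higher than those labelled Trib1-KO for 21 of the 35 genes and lower for 7, with 14.6% and 15.7% of all genes called in these directions. The libraries labelled Trib1-KO enter this comparison and those above, so the counts are not independent of each other. The lower genes were Ggcx, Thbd, F11, Kng2, F13a1, Plat and Plau, with Thbd at -1.44 ± 0.19 and F11 at -1.40 ± 0.16 as the lowest among those above 20 normalized counts in every group mean. Without H3 the calls of Plau (-0.58, adjusted p = 0.0547), F12 (0.17, adjusted p = 0.0938) and Kng1 (0.30, adjusted p = 0.0581) in this comparison were lost, and Cpb2 passed (-0.59, adjusted p = 0.0444). Without F3, H2 and H3 together Plau was at -0.31 in place of -0.72 (adjusted p = 0.233), F12 at 0.18 (adjusted p = 0.0983) and Kng1 at 0.17 (adjusted p = 0.206), while Cpb2 (-0.78, adjusted p = 0.000229) and F5 (-0.28, adjusted p = 0.0451) passed. Under quantile normalization Plau, F12 and Kng1 did not pass either (adjusted p = 0.0722, 0.71 and 0.27), while F5 did (-0.39, adjusted p = 0.00368). With totals that leave out the major urinary protein genes, F12, Kng1 and Vkorc1 did not pass (adjusted p = 0.422, 0.585 and 0.343). Cpb2, F5 and F8 then passed as lower (adjusted p = 0.034, 0.000342 and 0.0013). With only the groups compared fitted, Plau and F12 were lost (adjusted p = 0.0537 and 0.0617).

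A list of 29 other genes of the same pathways, of which 26 passed the filter on low values, was also examined. In the libraries labelled Trib1-KO falls were not most of its calls, with 6 called higher and 5 lower. These are 23.1% and 19.2% of the 26 against 11.8% and 10.9% of all genes. Among the 35 genes 7 were called higher there and 19 lower. In Cebpa-KO the counts were 2 and 4 (7.69% and 15.4%, against 4.6% and 5.22%), and in those labelled DKO 3 and 4 (11.5% and 15.4%, against 2.84% and 3.25%). The medians were 0.10, -0.09 and -0.10. The largest rises in the libraries labelled Trib1-KO were Anxa2, whose product binds plasminogen at the cell surface, from a WT median of 266 to 1669 (2.63 ± 0.10, adjusted p = 2.21e-15), and Plaur, the urokinase receptor, from 8.56 to 45.7 (2.37 ± 0.34). The largest falls were Serpine2, a serpin that inhibits thrombin and urokinase, from 632 to 95.6 (-2.79 ± 0.21), and Hgfac, a protease related to factor XII, from 3876 to 2175 (-0.89 ± 0.09). Those 2 genes were also the largest rises in Cebpa-KO, Serpine2 to 1248 (1.10 ± 0.21, adjusted p = 0.000865) and Hgfac to 5379 (0.48 ± 0.09, adjusted p = 0.00071). The largest falls there were S100a10, the partner of Anxa2, from 1498 to 558 (-1.39 ± 0.15), and Mst1, a plasminogen-like growth factor, from 3166 to 2288 (-0.42 ± 0.10). Under the DKO label Serpine2 (1.04 ± 0.21) and the thrombin receptor F2r (0.50 ± 0.13) rose most, and Bdkrb2, a bradykinin receptor (-1.83 ± 0.44), and Serpina5, the protein C inhibitor (-1.57 ± 0.46), fell most, the last 2 at WT medians of 8.42 and 4.49 normalized counts.

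The scaling of the libraries bears on the size of these differences. The major urinary protein genes, named Mup, held 21.0 to 26.7% of all counts in the group labelled Trib1-KO, 2.93 to 8.73% in WT, 1.28 to 2.23% in Cebpa-KO and 1.43 to 4.54% in those labelled DKO. When totals without the Mup genes set the scale, the median of all genes in the libraries labelled Trib1-KO against WT moved to 0.24, and that of the 35 genes to -0.15. The split over all genes then became 5180 higher and 987 lower, the 35 genes gave 16 lower and 10 higher, and the calls of F9, Kng1 and Vkorc1 were lost (adjusted p = 0.0588, 0.287 and 0.352). F11, F5 and Ggcx became called higher under it, by 0.51, 0.38 and 0.55.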

How the data were processed

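RNA from the frozen liver of each mouse was made into stranded mRNA libraries, per the labels' protocols. The submitters' processing notes name Salmon, DESeq2 and GRCm38.p6, without tool versions. The deposited table holds 1 signal per gene and library, estimated read counts that the authors divided by size factors, with the unit judged from the values. Of the low values, 60.6 to 66.0% were whole multiples of 1 step (tolerance 0.02), so whole reads were not recovered and no count test was run. The steps put the depth at 18600000 to 34300000 reads. Columns name the group and not the sample.

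Values were taken as log2(value + 1), and the 19810 genes whose mean reached 1 were fitted with limma 3.58.1 in R 4.3.3, as 4 group means over 24 libraries with an intensity trend. P-values were Benjamini-Hochberg adjusted over all genes, and the code was tested on simulated data. Fold changes are on this scale and understate those of low genes. Of 54432 identifiers, 54050 were in GENCODE M21, and all 35 genes were found. The genes and lists were chosen with earlier results of these data known. Low, median and high values are given for the 3 genes per role with the largest called difference from WT and for all genes called in the interaction, and the other pathway genes named are the 2 largest called rises and falls. Saa1 and Saa2, the alternatives that leave libraries out and the one with column number as a term were chosen after seeing the data.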

Additional observations from a re-analysis of the deposited data

Results flagged for a closer look

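In 7 of the 140 combinations of gene and group examined, the highest or lowest library lay far from the other 5 of its group. The gap to the next library, as a share of the whole range, was above Dixon's 95% critical value for 6 values, a level that chance alone passes in about 1 in 20 groups. Replicate F3 of Cebpa-KO was highest for Serpina10 at 10560 normalized counts, with the next at 5201, and for Tfpi at 299.9, with the next at 214.2. This library also held the highest Saa1 and Saa2 of its group, and the part of that in these values was not tested. The others were F8 at 840.3 in library D3 labelled Trib1-KO (next 666), Thbd at 165.5 in WT A2 (next 96.5), Serpinc1 at 59220 in H2 labelled DKO (next 51590), Plat at 4.27 in Cebpa-KO E1, the lowest (next 11.5), and Plau at 58.02 in Cebpa-KO F1, also the lowest (next 69.4).

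The difference between the contrast of the libraries labelled Trib1-KO with WT and that of those labelled DKO with Cebpa-KO passed for 24 genes. Of these, 13 lost the call in at least 1 alternative: F2, F8, F9, F12, Fgb, Fgg, Hrg, Kng1, Plau, Plg, Serpina10, Serpinc1 and Vkorc1. Among the vitamin K-dependent genes the interaction was 0.69 for F2, 1.04 for F7, 0.48 for F9, 0.67 for F10, 0.87 for Proc, 0.89 for Proz and 0.48 for Vkorc1, the last with an adjusted p of 0.0426. It was -0.57 for F8. Among the contact genes it was 0.35 for F12, 1.23 for Klkb1, 0.52 for Kng1, -0.54 for Kng2 and 0.74 for Habp2. The fibrinogen chains gave 1.24 for Fga, 1.16 for Fgb and 1.20 for Fgg, and F13b gave 0.98. In fibrinolysis Plg gave 0.75, Plau -1.17, Serpinf2 1.33 and Hrg 0.47. The inhibitors gave 0.49 for Serpinc1, 0.64 for Serpind1 and 0.92 for Serpina10.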

How the results depend on the processing

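Over 13 alternatives, 2559 of 2689 log2 differences of single genes kept their side of the threshold, and the called ones among them kept their direction. Differences called neither in the main fit nor in the alternative are among the 2559 even where their sign changed. The 16 genes lower in the libraries labelled Trib1-KO besides F9, Kng1 and Vkorc1 stayed called in every alternative, as did F8, Thbd, Kng2, Plau and F13a1 of the higher ones, the last not tested at a mean of at least 10. The count of lower genes ran from 16 to 20 and that of higher genes from 6 to 10. Of the 24 interaction calls, 11 were kept throughout. In Cebpa-KO against WT the 4 lower genes were kept, and the count of higher genes was 3 in place of 6 with no filter on low values and 3 without replicate F3. In the libraries labelled DKO against WT the count of higher genes was 2 in place of 4 with no filter on low values, 2 with no intensity trend, 1 to 5 without replicate B3, F3 or H3 singly (1 without H3) and 1 without F3, H2 and H3 together. The count of lower genes there was 2 in place of 1 with Mup-free totals, 2 with column number as a term and 3 without F3, H2 and H3. Positive interactions numbered 11 in place of 21 under quantile normalization, and negative ones 6 in place of 3 with Mup-free totals and 1 without F3, H2 and H3. F12 in the libraries labelled DKO against those labelled Trib1-KO turned from 0.20 to -0.0844 (adjusted p = 0.422) with Mup-free totals, which moved the median of all genes in that comparison to -0.29 and in the interaction to -0.24. Fitting only the groups compared gives no interaction. The cause of the other changes was not tested. No paired analysis was possible because the labels give no number that groups share, and the numbers 1 to 3 in the column names each occur on 2 columns of a group. With that number as a term, chosen after seeing the data, 6 single differences became called and 0 lost the call. Genes near 0 counts, such as F13a1 and Plat, have wide intervals at this depth.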
